A study of Mus musculus with 6 samples.

Results

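The 38 genes described here encode the core autophagy machinery of the mouse: the ULK initiation kinases and their partners (5 genes), the Beclin and PI3K complexes (6), the WIPI, ATG2, ATG9A and VMP1 membrane proteins (6), the conjugation enzymes (11), the LC3 and GABARAP proteins (5) and cargo receptors (5). They were listed by gene symbol, and all 38 were found among the 25124 genes of the deposited expression table. All 38 reached 1 TPM (a read count corrected for transcript length and library size) in at least 3 samples and were tested with 11297 genes in all.

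RNA-seq was done on the mouse macrophage line RAW264.7, in 3 M1 samples that received 100 ng/ml LPS and 50 ng/ml IFN-γ and in 3 M0 samples that received neither. All samples came from a control line that carries a Cas9 plasmid with no guide RNA, made as the counterpart of an E4BP4 knockout, and were grown in 25 mM glucose. Whether that line is a single clone, how long the cells were treated, and whether replicates are separate cultures are not given in the labels, so p-values cover only the spread from sample to sample, which may be technical.

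Autophagy encloses cytoplasm, damaged organelles or microbes in a double membrane that fuses with the lysosome. The ULK kinase complex starts the process, the PI3K complex makes the lipid PI3P at the growing membrane, WIPI and ATG2 proteins feed that membrane with lipid, and a ubiquitin-like conjugation system attaches LC3 and GABARAP proteins to it. Cargo receptors such as SQSTM1 (p62) bind ubiquitin on the cargo and LC3 on the membrane, and are degraded along with what they carry. In macrophages the same proteins take part in the clearance of bacteria and in the control of inflammatory signalling. Autophagic flux depends on protein turnover, which RNA levels do not measure.

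The 6 libraries held between 15615641 and 20283167 reads in genes. All 10 macrophage markers examined were at 1 TPM or more, with a summed level of 2783 to 2824 TPM in M1 samples and 3010 to 3237 TPM in M0 samples, and 5 genes of the M1 state (Nos2, Il1b, Cxcl10, Irf1 and Gbp2) summed to 5751 to 5785 TPM in M1 samples and 25.9 to 26.5 TPM in M0 samples. Single macrophage markers went both ways in TPM (limma, adjusted p below 0.05). Ptprc, Adgre1, Spi1, Fcgr1 and Mertk were called higher in M1, with Adgre1 at means of 67.6 TPM in M1 and 2.73 TPM in M0. Csf1r, Cd68, Itgam and Lyz2 were called lower, with Lyz2 at means of 683 TPM in M1 and 1069 TPM in M0. Cd14 was not called. Fibroblast markers summed to 0.783 to 1.09 TPM in M1 samples and 0.0220 to 0.178 TPM in M0 samples, with 2 of 5 at 0, and markers of epithelial, T and B cells stayed at or below 0.303 TPM in both groups. Most of the fibroblast sum in M1 samples was Dcn (mean 0.927 TPM). The neutrophil markers summed to 3.19 to 3.90 TPM in M1 samples and 4.43 to 5.85 TPM in M0 samples. Nearly all of that was S100a8 (means of 3.39 TPM in M1 and 5.29 TPM in M0), with 2 of 4 at 0. The dendritic cell markers summed to 0.878 to 1.14 TPM in M1 samples and 1.37 to 1.64 TPM in M0 samples, mostly Zbtb46 (means of 0.674 and 1.44 TPM). The part of these in the results below was not tested. In bulk RNA, fewer cells expressing a gene and less RNA per cell cannot be told apart.

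The median tested gene had a log2 change of -0.31 (M1 over M0) in TPM, and of 0.02 after TPM was divided by median-of-ratios factors, which centre the bulk of the genes. Directions are therefore read on both scales, and "rose" and "fell" are used of genes that limma called the same way on both, at an adjusted p below 0.05. By that rule 7 of the 38 autophagy genes rose, where 18.7% of all tested genes did, and 15 fell, where 35.4% of all tested genes did. On both scales the groups did not overlap in 7 genes that were higher in M1 (19.6% of all tested genes) and in 16 that were lower (36.5%). On the TPM scale alone 7 were called higher (18.7% of all tested genes) and 25 lower (61.5%). After rescaling 16 were called higher (38.1%) and 15 lower (35.4%). All 2111 tested genes called higher in TPM were also called higher after rescaling. All 4002 called lower after rescaling were also called lower in TPM. The scales are thus not separate checks. A rise rests on the TPM call alone and a fall on the rescaled call alone. The median log2 change of the 38 was -0.31 in TPM and 0.04 after rescaling. The shares called for the whole machinery were thus near those of all tested genes.

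**Figure D1:**
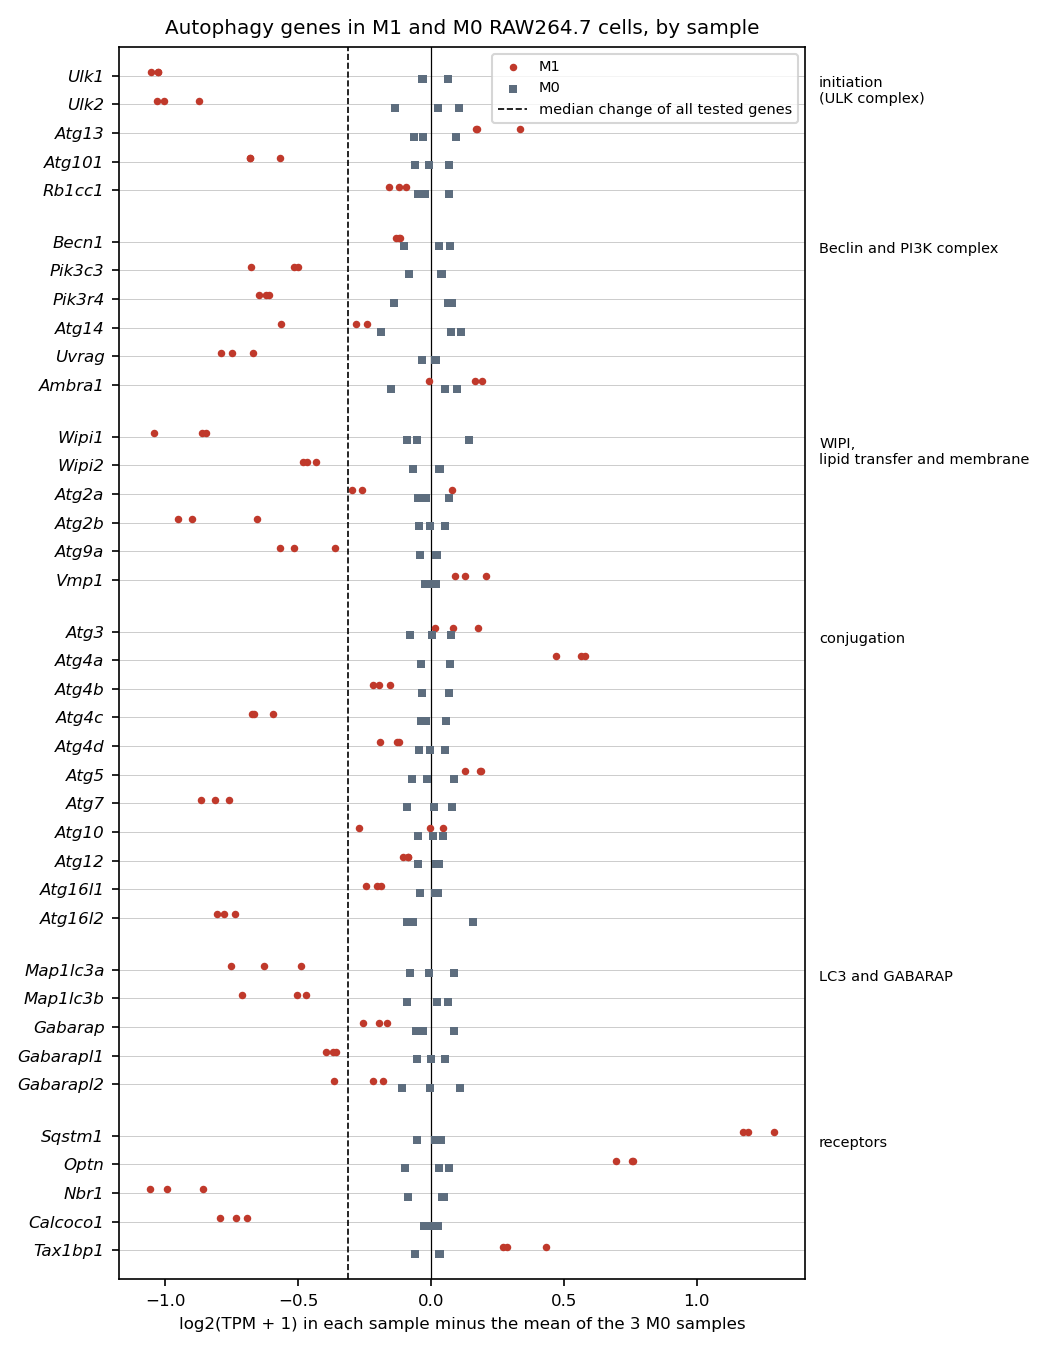
Log2(TPM + 1) of each of the 38 autophagy genes in each of the 6 samples minus the mean of the 3 M0 samples (x axis), with genes grouped by role down the page. Red circles are M1 samples and grey squares M0 samples, and the dashed line is the median change of all tested genes at -0.31. In Sqstm1, Optn, Atg4a and Tax1bp1 all M1 points lie right of all M0 points, and in Ulk1, Ulk2, Nbr1 and Wipi1 far left of them.

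The cargo receptors moved in both directions: Sqstm1, Optn and Tax1bp1 rose and Nbr1 and Calcoco1 fell. Sqstm1 encodes p62, the receptor that gathers ubiquitinated protein and is also a scaffold in NF-κB and NRF2 signalling. Its transcript (NM_011018, mm10 chromosome 11, 50200152 to 50210820, minus strand) was at 438, 444 and 475 TPM in M1 samples, against 186, 199 and 195 TPM in M0 samples. Every M1 sample was far above every M0 sample, and the means were 452 ± 19.8 TPM in M1 samples and 193 ± 6.35 TPM in M0 samples (SD, n = 3 each). The level was 2.34-fold higher in M1 (3.01-fold after rescaling). The log2 change was 1.22 (limma, SE 0.05, adjusted p = 9.0e-10), and 1.58 (limma adjusted p = 3.4e-10) after rescaling. The authors' deposited table gives 1.59 for the same gene. Sqstm1 was the only one of the 38 genes with a ratio of mean TPM of at least 2, which 7.34% of all tested genes were called with in the higher direction. After rescaling, Sqstm1, Optn and Atg4a were called higher with such a ratio, as were 10.1% of all tested genes.

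Optn encodes optineurin, a ubiquitin-binding receptor for bacteria and damaged mitochondria (NM_181848, mm10 chromosome 2, 5020642 to 5064117, minus strand). It was at 11.9, 11.4 and 11.9 TPM in M1 samples, against 6.14, 7.02 and 6.80 TPM in M0 samples. All M1 values were above all M0 values. The log2 change was 0.74 (limma, SE 0.07, adjusted p = 1.2e-06) in TPM and 1.06 (limma adjusted p = 7.3e-08) after rescaling, and the authors' deposited table gives 1.19. Tax1bp1 encodes a receptor that works with NBR1 and p62 on protein aggregates (NM_025816, mm10 chromosome 6, 52713729 to 52766779, plus strand). It was at 132, 130.3 and 146 TPM in M1 samples, against 103, 110.3 and 110.0 TPM in M0 samples, 1.26-fold higher in M1 (1.62-fold after rescaling), and its groups did not overlap. Tbk1, the kinase that phosphorylates optineurin and p62, was higher too, with 63.3 ± 3.74 TPM in M1 samples and 44.2 ± 1.97 TPM in M0 samples (SD, n = 3 each) and a log2 change of 0.51 (limma, SE 0.06, adjusted p = 6.5e-06).

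Nbr1 and Calcoco1 went the other way. Nbr1 encodes the receptor that resembles p62 in domain order and acts on peroxisomes and aggregates (NM_001252223, mm10 chromosome 11, 101552654 to 101581951, plus strand). It was at 16.4, 17.1 and 18.9 TPM in M1 samples, against 33.0, 36.1 and 36.3 TPM in M0 samples. All M1 samples were far below all M0 samples, and the means were 17.5 ± 1.32 TPM in M1 samples and 35.1 ± 1.88 TPM in M0 samples (SD, n = 3 each). The log2 change was -0.97 (limma, SE 0.07, adjusted p = 9.1e-08) in TPM and -0.62 (limma adjusted p = 3.6e-06) after rescaling, with -0.64 in the authors' deposited table. Calcoco1, which encodes a receptor for endoplasmic reticulum and Golgi membranes, was at 7.30, 7.91 and 7.67 TPM in M1 samples, against 13.1, 13.7 and 13.4 TPM in M0 samples, again without overlap. Its log2 change was -0.74 (limma, SE 0.06, adjusted p = 4.7e-07) in TPM and -0.41 (limma adjusted p = 6.7e-05) after rescaling.

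Shares of a family do not change when a library is rescaled, so they show this shift within the receptors directly. Sqstm1 made up 72.4% ± 0.33 of the summed TPM of the 5 receptors in M1 samples and 54.3% ± 0.27 in M0 samples (SD, n = 3 each), a difference of 18.1 percentage points. Nbr1 held 2.79% ± 0.09 in M1 samples and 9.86% ± 0.20 in M0 samples, and Tax1bp1 held 21.7% ± 0.40 in M1 samples and 30.3% ± 0.13 in M0 samples. Tax1bp1 thus rose in level while its share was lower in M1, and the share of Optn was nearly equal, with 1.88% in M1 samples and 1.87% in M0 samples and overlapping groups. The median log2 change of the 5 was 0.33 in TPM and 0.69 after rescaling. Their summed level was 625 ± 29.8 TPM in M1 samples and 356 ± 12.8 TPM in M0 samples (SD, n = 3 each). The shares of Sqstm1 did not overlap between the groups (exact permutation test, two-sided, p = 0.10, the smallest that 3 samples against 3 allow, and 0.117 with Benjamini-Hochberg adjustment over the 7 families compared).

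**Figure D2:**
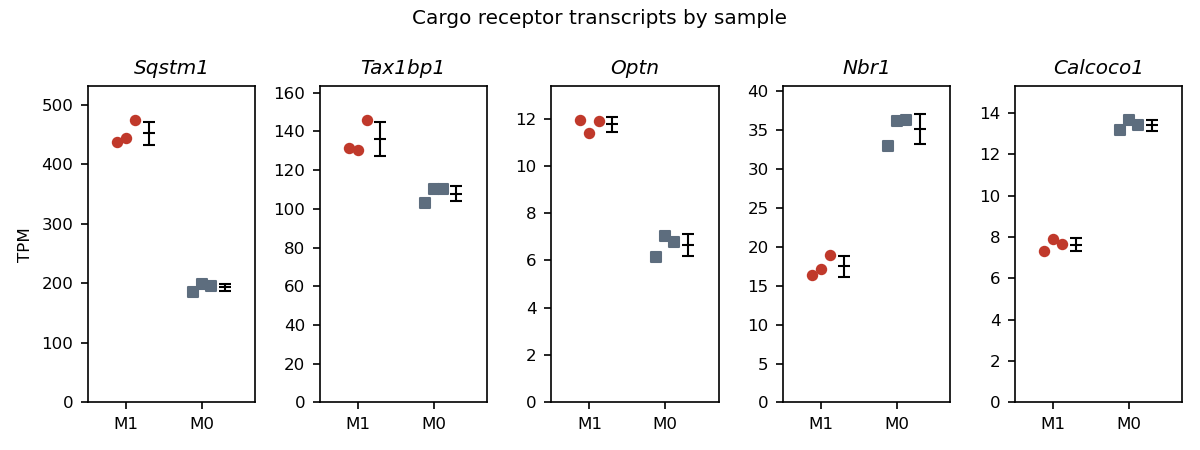
TPM of the 5 cargo receptors in each sample, with M1 left of M0 in each panel and the mean with SD beside the points (n = 3 each). Sqstm1, Tax1bp1 and Optn are higher in all 3 M1 samples than in any M0 sample, and Nbr1 and Calcoco1 are lower in all 3.

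Among the initiation genes both ULK kinases fell, while Atg13 rose. Ulk1, the kinase that mTORC1 and AMPK phosphorylate to hold back or release autophagy (NM_001347394, mm10 chromosome 5, 110784489 to 110810081, minus strand), was at 1.63, 1.58 and 1.63 TPM in M1 samples, against 4.25, 4.24 and 4.60 TPM in M0 samples. Its paralogue Ulk2 was at 5.22, 5.10 and 5.81 TPM in M1 samples, against 10.4, 12.4 and 11.7 TPM in M0 samples. For both kinases all M1 values were well below all M0 values. Ulk1 had the lowest ratio of the 38 genes, 2.70-fold lower in M1 (2.10-fold after rescaling). Its log2 change was -1.04 (limma, SE 0.07, adjusted p = 1.2e-07) in TPM and -0.77 (limma adjusted p = 2.7e-06) after rescaling, and the reads behind it were 412 in the 3 M1 samples together and 996 in the 3 M0 samples. The log2 change of Ulk2 was -0.97 (limma, SE 0.08, adjusted p = 4.8e-07) in TPM and -0.65 (limma adjusted p = 1.4e-05) after rescaling.

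With a ratio of mean TPM of at most 0.5, 5 of the 38 were called lower on the TPM scale (Ulk1, Ulk2, Wipi1, Atg2b and Nbr1), as were 16.4% of all tested genes. After rescaling Ulk1 alone was called lower with such a ratio, as were 9.14% of all tested genes. The kinase pair summed to 6.99 ± 0.396 TPM in M1 samples and 15.9 ± 1.11 TPM in M0 samples (SD, n = 3 each). Ulk1 held 23.1% ± 1.07 of that sum in M1 samples and 27.6% ± 1.92 in M0 samples, without overlap (exact permutation test, two-sided, p = 0.10, the smallest possible here, adjusted 0.117).

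The partners of the kinases differed in direction. Atg13, the adaptor that ties ULK1 to RB1CC1, was at 36.7, 36.8 and 41.2 TPM in M1 samples, against 31.8, 34.8 and 31.0 TPM in M0 samples. Its groups did not overlap, with a log2 change of 0.23 (limma, SE 0.06, adjusted p = 0.0060) in TPM and 0.58 (limma adjusted p = 5.1e-06) after rescaling. Atg101, which binds and stabilises ATG13, was at 31.3, 28.8 and 28.9 TPM in M1 samples, against 44.9, 46.7 and 49.2 TPM in M0 samples. It fell, 1.58-fold lower in M1 (1.23-fold after rescaling), so that this pair of binding partners moved in opposite directions. Rb1cc1, the large scaffold also known as FIP200, was at 13.4 ± 0.320 TPM in M1 samples and 14.7 ± 0.677 TPM in M0 samples (SD, n = 3 each), with a log2 change of -0.13 and a 95% interval of -0.26 to 0.00. After rescaling it was called higher at 0.21 (limma adjusted p = 0.0032). Of the 5 initiation genes, 1 rose (against 18.7% of all tested genes) and 3 fell (against 35.4%), and their median log2 change was -0.64 in TPM and -0.29 after rescaling.

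**Figure D3:**
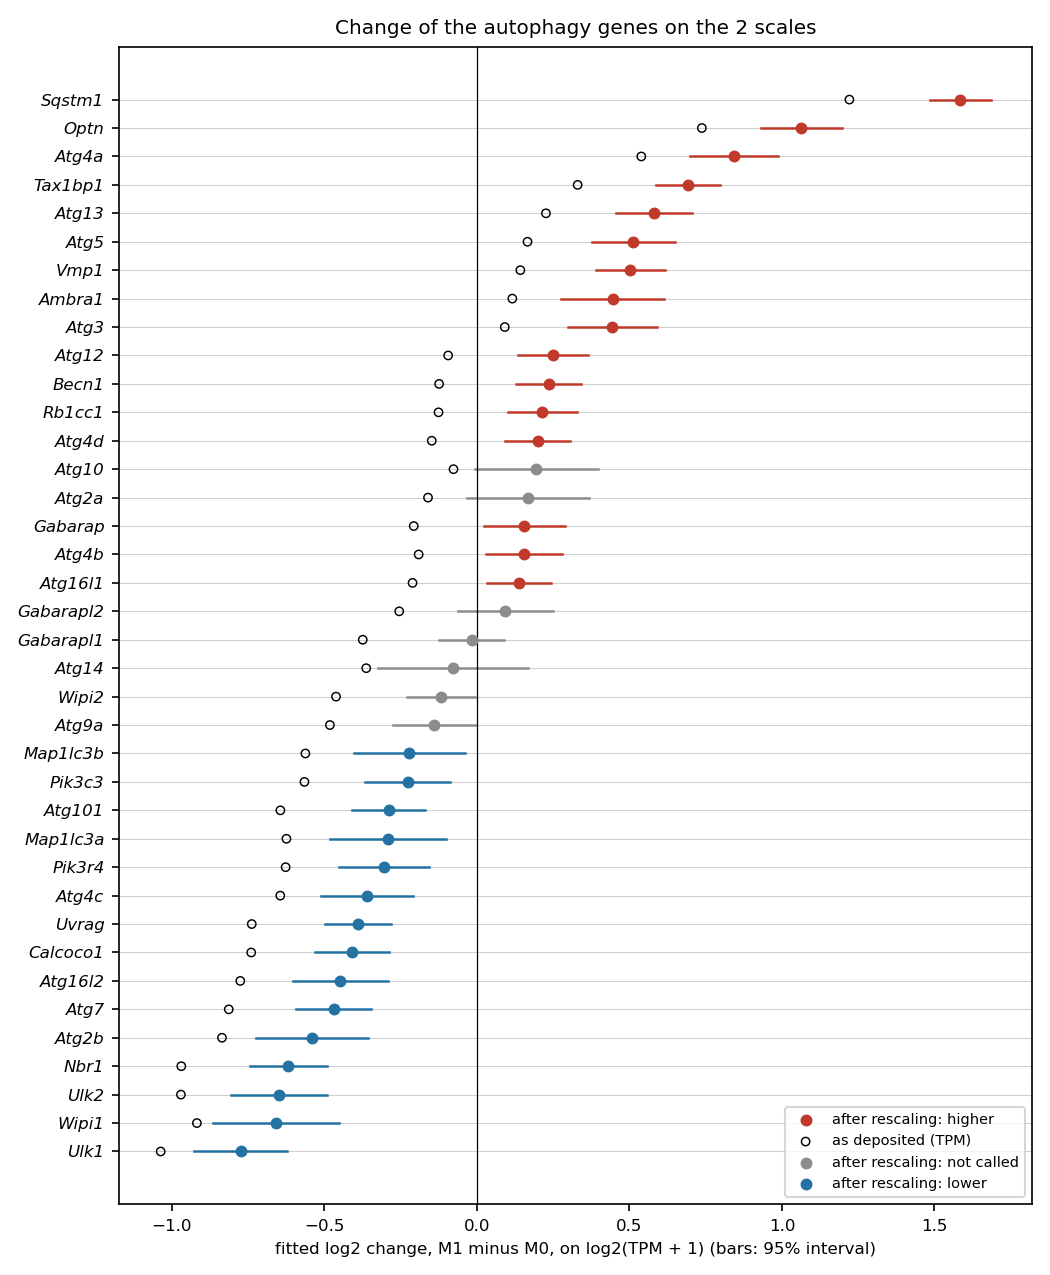
Fitted log2 change (M1 minus M0) of the 38 genes, ordered by the change after rescaling. Filled points with 95% intervals are the rescaled values, red where called higher, blue where called lower and grey where not called, and open circles are the values in TPM. Sqstm1 at 1.58 and Ulk1 at -0.77 after rescaling mark the ends, and each open circle lies left of its filled point.

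In the Beclin and PI3K complexes no gene rose and 3 of 6 fell, where 18.7% and 35.4% of all tested genes did. Pik3c3, the lipid kinase VPS34, was at 10.8, 9.49 and 10.7 TPM in M1 samples, against 14.8, 16.2 and 16.3 TPM in M0 samples. Pik3r4, its regulatory subunit VPS15, was at 5.91, 6.05 and 6.09 TPM in M1 samples, against 8.83, 10.3 and 10.4 TPM in M0 samples. Both the kinase and this subunit were lower in every M1 sample, and Pik3r4 had a log2 change of -0.63 (limma, SE 0.07, adjusted p = 1.1e-05) in TPM and -0.30 (limma adjusted p = 0.0019) after rescaling. Uvrag, which directs the complex to endosomes and late steps, was at 17.9, 17.4 and 19.0 TPM in M1 samples, against 31.2, 31.2 and 30.1 TPM in M0 samples. Its groups did not overlap, with a log2 change of -0.74 (limma, SE 0.05, adjusted p = 1.8e-07) in TPM and -0.39 (limma adjusted p = 4.0e-05) after rescaling.

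The remaining members of these complexes depended on the scale. Atg14, which directs the complex to the forming autophagosome, was at 3.03 ± 0.472 TPM in M1 samples and 4.18 ± 0.572 TPM in M0 samples (SD, n = 3 each), lower in TPM at -0.36 (limma, SE 0.11, adjusted p = 0.0091) and not called after rescaling at -0.08 (95% interval -0.32 to 0.17). Becn1, the Beclin subunit shared by both complexes, was at 55.7 ± 0.318 TPM in M1 samples and 60.8 ± 3.87 TPM in M0 samples (SD, n = 3 each). It was lower in TPM at -0.12 (limma, SE 0.05, adjusted p = 0.0495) and higher after rescaling at 0.23 (limma adjusted p = 0.0012). The TPM call sat at the threshold: leaving out M1 replicate 1, 2 or 3 or M0 replicate 2 or 3 gave limma adjusted p-values of 0.0907, 0.119, 0.0603, 0.137 and 0.193. Becn1 overlaps the opposite-strand gene Cntd1 (10.2 TPM), and as no source used here says whether reads were counted by strand, their reads may not be separate. Ambra1, a Beclin-binding regulator, was at 9.65 ± 0.785 TPM in M1 samples and 8.84 ± 0.887 TPM in M0 samples (SD, n = 3 each) and was called only after rescaling, at 0.45 (limma adjusted p = 0.00038). The median log2 change of the 6 was -0.46 in TPM and -0.15 after rescaling.

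Of the genes for membrane supply, Wipi1 and Atg2b fell and Vmp1 rose. Wipi1, a PI3P-binding protein that marks forming autophagosomes, was at 1.42, 1.77 and 1.74 TPM in M1 samples, against 4.51, 3.81 and 3.69 TPM in M0 samples. The groups stood clear of each other, although the level rests on few reads, 146 in the 3 M1 samples together and 320 in the 3 M0 samples. Its log2 change was -0.92 (limma, SE 0.09, adjusted p = 2.4e-06) in TPM and -0.66 (limma adjusted p = 9.5e-05) after rescaling. Wipi2, the relative that recruits ATG16L1, was at 13.7, 14.0 and 13.5 TPM in M1 samples, against 18.4, 19.8 and 19.7 TPM in M0 samples. It was lower in TPM at -0.46 (limma, SE 0.06, adjusted p = 1.4e-05) and just missed the threshold after rescaling, at -0.12 (limma adjusted p = 0.0558). Wipi1 held 10.7% ± 1.10 of the pair's summed TPM in M1 samples and 17.2% ± 2.18 in M0 samples, a difference of -6.50 points (exact permutation test, two-sided, p = 0.10, the smallest possible here, adjusted 0.117).

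The ATG2 proteins, which move lipid from the endoplasmic reticulum into the growing membrane, were split. Atg2b was at 2.91, 2.77 and 3.64 TPM in M1 samples, against 6.07, 6.56 and 6.27 TPM in M0 samples, 2.03-fold lower in M1 (1.58-fold after rescaling). Its log2 change was -0.84 (limma, SE 0.09, adjusted p = 4.1e-06) in TPM and -0.54 (limma adjusted p = 0.00018) after rescaling. Atg2a was at 7.71, 7.95 and 10.3 TPM in M1 samples, against 9.37, 10.2 and 9.58 TPM in M0 samples, so that M1 replicate 3 stood apart from the other two M1 samples and level with the M0 samples. It was called on neither scale, at -0.16 (95% interval -0.37 to 0.05) and 0.17 (-0.03 to 0.37). Without M1 replicate 3 it was called lower in TPM at -0.28 (limma adjusted p = 0.0029), and without M1 replicate 1 higher after rescaling at 0.23 (adjusted p = 0.049). Atg2a held 73.6% ± 0.87 of the pair in M1 samples and 60.7% ± 0.24 in M0 samples, the widest shift among the paralogue pairs at 12.9 points (exact permutation test, two-sided, p = 0.10, the smallest possible here, adjusted 0.117).

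Vmp1, an endoplasmic reticulum protein needed for the membrane to form, was the most abundant gene of this group at 81.8, 77.3 and 75.3 TPM in M1 samples, against 71.6, 69.5 and 70.8 TPM in M0 samples. Its groups did not overlap, but the log2 change in TPM was small, 0.14 (limma, SE 0.05, adjusted p = 0.015), and 0.50 (limma adjusted p = 7.5e-06) after rescaling. The TPM call was lost without M1 replicate 1 (limma adjusted p = 0.077) or M0 replicate 2 (0.051). Atg9a, the lipid scramblase on vesicles that seed the membrane, was at 12.6, 12.1 and 14.2 TPM in M1 samples, against 18.8, 17.9 and 18.7 TPM in M0 samples. It was lower in TPM at -0.48 (limma, SE 0.07, adjusted p = 3.7e-05) and not called after rescaling at -0.14 (limma adjusted p = 0.062), although leaving out M1 replicate 3 gave a call there at -0.19 (adjusted p = 0.013). The 6 genes had a median log2 change of -0.47 in TPM and -0.13 after rescaling.

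Of the 11 conjugation genes 2 rose and 3 fell, near the 18.7% and 35.4% of all tested genes, and their median log2 change was -0.15 in TPM and 0.19 after rescaling. Atg7, the E1-like enzyme at the head of both conjugation branches (NM_028835, mm10 chromosome 6, 114643097 to 114860614, plus strand), was at 11.7, 12.2 and 12.7 TPM in M1 samples, against 20.8, 22.4 and 23.5 TPM in M0 samples. It fell, with a log2 change of -0.81 (limma, SE 0.06, adjusted p = 2.8e-07) in TPM and -0.47 (limma adjusted p = 2.3e-05) after rescaling. The E2-like enzymes behind it were not called lower on either scale. Atg3, which hands LC3 to the lipid, was at 30.9 ± 1.83 TPM in M1 samples and 28.9 ± 1.60 TPM in M0 samples (SD, n = 3 each), uncalled in TPM at 0.09 and higher after rescaling at 0.44 (limma adjusted p = 0.00014). Atg10, the E2-like enzyme of the ATG12 branch, was at 2.85 ± 0.436 TPM in M1 samples and 3.04 ± 0.132 TPM in M0 samples (SD, n = 3 each) and called on neither scale, at -0.08 (95% interval -0.28 to 0.13) and 0.19 (-0.01 to 0.40). Its level rests on few reads, 224 in the 3 M1 samples together and 214 in the 3 M0 samples, and without M1 replicate 1 it was called higher after rescaling at 0.29 (limma adjusted p = 0.0094).

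Atg5 and Atg12 are joined by this system and bind ATG16L1 to form the enzyme that places LC3 on membranes. Atg5 was at 21.0, 20.9 and 20.1 TPM in M1 samples, against 19.5, 18.1 and 17.4 TPM in M0 samples. It rose, without overlap, at 0.17 (limma, SE 0.06, adjusted p = 0.022) in TPM and 0.51 (limma adjusted p = 2.7e-05) after rescaling. The TPM call was lost without M1 replicate 1 (limma adjusted p = 0.064), M1 replicate 2 (0.070), M0 replicate 2 (0.059) or M0 replicate 3 (0.095). Atg12 was at 15.2 ± 0.125 TPM in M1 samples and 16.3 ± 0.513 TPM in M0 samples (SD, n = 3 each), uncalled in TPM at -0.09 and higher after rescaling at 0.25 (limma adjusted p = 0.0013). Atg16l1 was at 21.6 ± 0.450 TPM in M1 samples and 25.1 ± 0.680 TPM in M0 samples (SD, n = 3 each), lower in TPM at -0.21 (limma, SE 0.05, adjusted p = 0.0027) and higher after rescaling at 0.14 (limma adjusted p = 0.022). Its paralogue Atg16l2 was at 6.67, 6.53 and 6.89 TPM in M1 samples, against 11.6, 13.7 and 11.4 TPM in M0 samples, and fell with a log2 change of -0.78 (limma, SE 0.08, adjusted p = 2.3e-06) in TPM and -0.45 (limma adjusted p = 0.00020) after rescaling. Atg16l1 accordingly held 76.3% ± 0.83 of the pair's TPM in M1 samples and 67.3% ± 1.99 in M0 samples (exact permutation test, two-sided, p = 0.10, the smallest possible here, adjusted 0.117).

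The ATG4 proteases cut LC3 and GABARAP proteins before conjugation and release them from the membrane afterwards, and the 4 genes differed in direction. Atg4a was at 6.73, 6.16 and 6.64 TPM in M1 samples, against 4.04, 4.44 and 4.04 TPM in M0 samples. It rose, with a log2 change of 0.54 (limma, SE 0.07, adjusted p = 2.7e-05) in TPM and 0.84 (limma adjusted p = 9.4e-07) after rescaling. Atg4c was at 2.61, 2.82 and 2.63 TPM in M1 samples, against 4.61, 4.70 and 4.99 TPM in M0 samples, and fell. Atg4a made up 14.3% ± 0.84 of the family's TPM in M1 samples and 8.30% ± 0.52 in M0 samples, while Atg4c made up 5.88% ± 0.20 in M1 samples and 9.48% ± 0.34 in M0 samples. The abundant pair stayed closer to level. Atg4b was at 17.3 ± 0.413 TPM in M1 samples and 19.9 ± 0.848 TPM in M0 samples (SD, n = 3 each), lower in TPM at -0.19 (limma, SE 0.06, adjusted p = 0.0081) and higher after rescaling at 0.16 (limma adjusted p = 0.028). Atg4d was at 19.2 ± 0.543 TPM in M1 samples and 21.4 ± 0.774 TPM in M0 samples (SD, n = 3 each), lower in TPM at -0.15 (limma, SE 0.05, adjusted p = 0.026) and higher after rescaling at 0.20 (limma adjusted p = 0.0035), and its TPM call was lost without M1 replicate 1 (limma adjusted p = 0.095), M1 replicate 2 (0.055), M0 replicate 2 (0.056) or M0 replicate 3 (0.102). Atg4d held 42.0% ± 0.54 of the family in M1 samples and 42.6% ± 1.34 in M0 samples, with overlapping groups (exact permutation test, two-sided, p = 0.50). It overlaps the opposite-strand gene Kri1 (20.6 TPM), with which reads may be shared.

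Becn1, Atg4b, Atg4d, Atg16l1 and Gabarap were the 5 genes called lower in TPM and higher after rescaling, as were 4.51% of all tested genes. For these the direction depends on the scale and none is assigned. Atg2a and Atg10 were the 2 called on neither scale, which was so for 4.94% of all tested genes.

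**Figure D4:**
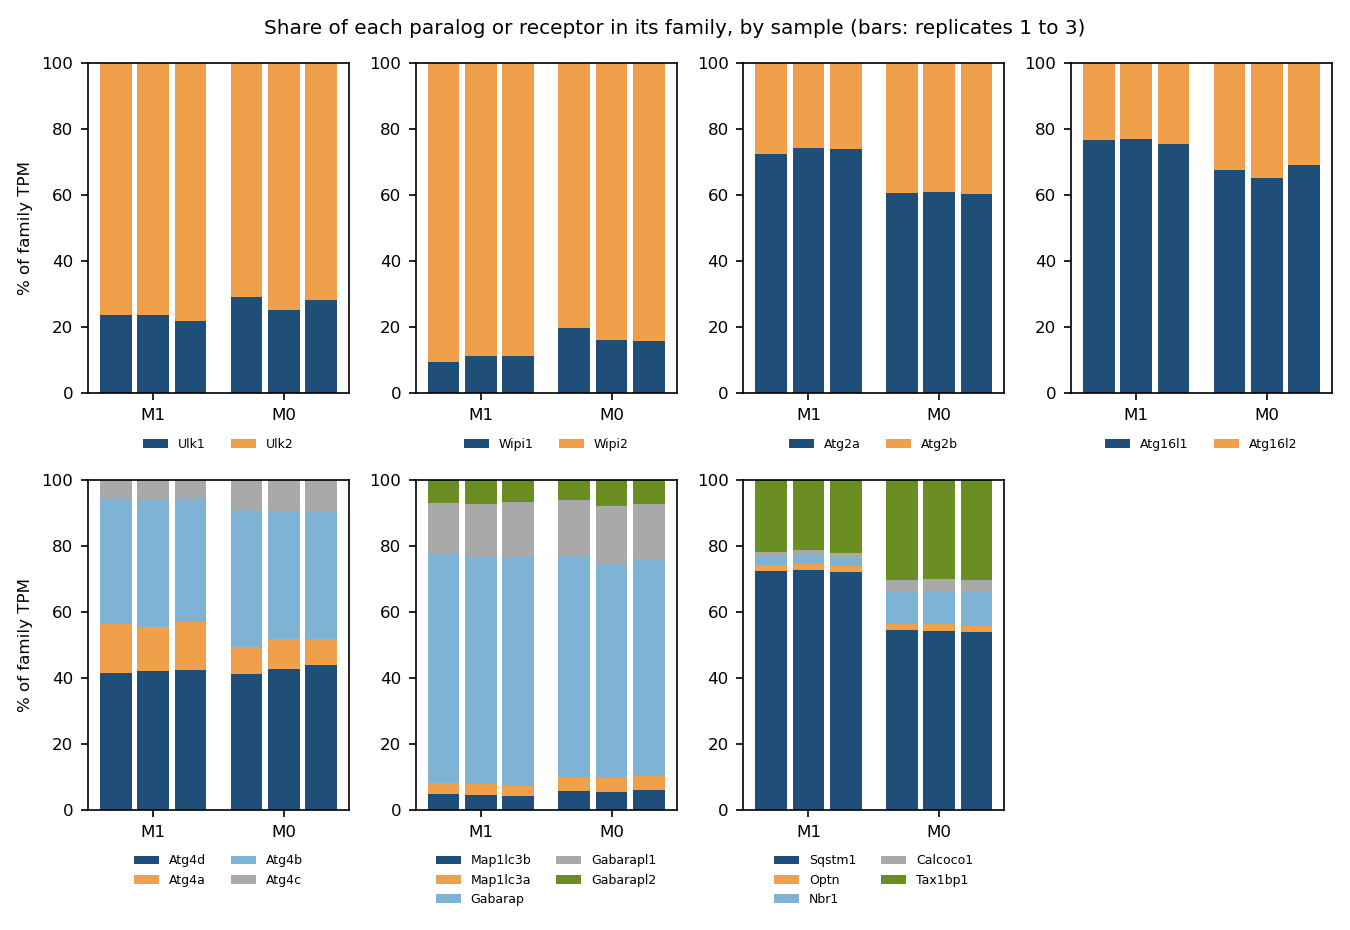
Percentage of family TPM held by each gene of 7 families (y axis), as stacked bars with 1 bar per sample and the 3 M1 samples left of the 3 M0 samples. Sqstm1, Atg2a and Atg16l1 hold larger shares in all 3 M1 samples, Ulk1, Wipi1 and Map1lc3b smaller ones, and the shares of Atg4d overlap.

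The LC3 and GABARAP proteins coat the membrane and bind receptors, and of the 5 genes none rose and 2 fell (against 18.7% and 35.4% of all tested genes), with a median log2 change of -0.37 in TPM and -0.02 after rescaling. Gabarap was the most abundant at 178 ± 5.70 TPM in M1 samples and 206 ± 10.9 TPM in M0 samples (SD, n = 3 each), lower in TPM at -0.21 (limma, SE 0.05, adjusted p = 0.0025) and higher after rescaling at 0.16 (limma adjusted p = 0.034). Gabarapl1 was at 40.9 ± 0.510 TPM in M1 samples and 53.3 ± 2.01 TPM in M0 samples (SD, n = 3 each) and Gabarapl2 at 18.4 ± 1.27 TPM in M1 samples and 22.1 ± 1.75 TPM in M0 samples (SD, n = 3 each). Gabarapl1 was lower in TPM at -0.37 (limma, SE 0.05, adjusted p = 1.9e-05) and uncalled after rescaling at -0.02 (95% interval -0.12 to 0.09), and Gabarapl2 was lower in TPM at -0.25 (limma, SE 0.07, adjusted p = 0.0064) and uncalled after rescaling at 0.09 (-0.06 to 0.25). Map1lc3a and Map1lc3b were the genes that fell.

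Map1lc3a was at 9.35, 8.39 and 7.62 TPM in M1 samples, against 14.4, 12.8 and 13.4 TPM in M0 samples, with a log2 change of -0.62 (limma, SE 0.08, adjusted p = 1.8e-05) in TPM and -0.29 (limma adjusted p = 0.010) after rescaling. The authors' deposited comparison gives -0.31 for Map1lc3a and does not call it (authors' adjusted p = 0.072). Map1lc3b, whose product LC3B is the usual marker of autophagosomes, was at 12.7, 12.4 and 10.6 TPM in M1 samples, against 18.8, 16.8 and 18.3 TPM in M0 samples. The groups of both genes were separate in TPM. The call of Map1lc3b after rescaling, -0.22 (limma adjusted p = 0.033), was lost without M1 replicate 3 (limma adjusted p = 0.092), M0 replicate 1 (0.108) or M0 replicate 3 (0.085), and also with no filter on low values (0.075) or no trend and robust fit (0.052). Its level per length also depends on the transcript length, which is 2449 bases in the TPM table and 1705 in the authors' second table, and it overlaps the opposite-strand gene Zcchc14 (6.08 TPM). The family summed to 257 ± 8.55 TPM in M1 samples and 312 ± 12.6 TPM in M0 samples (SD, n = 3 each), of which Gabarap held 69.1% ± 0.31 in M1 samples and 65.8% ± 0.87 in M0 samples. Map1lc3b held 4.61% ± 0.29 in M1 samples and 5.75% ± 0.22 in M0 samples (exact permutation test, two-sided, p = 0.10, the smallest possible here, adjusted 0.117).

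The genes around the machinery were described from 5 further lists, with log2 changes in TPM unless stated otherwise. In the list of 10 transcription factors that control autophagy and lysosome genes, 4 rose and 5 fell (against 18.7% and 35.4% of all tested genes), with a median log2 change of -0.41 in TPM and -0.07 after rescaling. Tfeb, which drives lysosome and autophagy genes through the CACGTG-type element, was at 2.29, 2.35 and 2.48 TPM in M1 samples, against 17.3, 16.5 and 17.0 TPM in M0 samples. The groups were far apart, the level was 7.14-fold lower in M1 (5.55-fold after rescaling), and the log2 change was -2.41 (limma, SE 0.06, adjusted p = 3.1e-11) in TPM and -2.11 (limma adjusted p = 3.8e-10) after rescaling. Foxo3, another activator of autophagy genes, fell as well, with 4.59 ± 0.229 TPM in M1 samples and 11.2 ± 0.829 TPM in M0 samples (SD, n = 3 each) and a log2 change of -1.12 (limma, SE 0.07, adjusted p = 6.7e-08). Within the same protein family as Tfeb, Mitf rose, with 28.1 ± 1.14 TPM in M1 samples and 14.1 ± 1.44 TPM in M0 samples (SD, n = 3 each) and a log2 change of 0.94 (limma, SE 0.07, adjusted p = 2.7e-07). Tfec also rose, at 1.85, 1.74 and 1.15 TPM in M1 samples, against 0.108, 0.112 and 0.0850 TPM in M0 samples, on few reads, 139 in the 3 M1 samples together and 8 in the 3 M0 samples. Its log2 change was 1.22 (limma, SE 0.11, adjusted p = 9.6e-07). Tfec reached the 1 TPM of the filter in the 3 M1 samples only. Its entry into the test thus depended on the same values that were compared, and its adjusted p carries that selection. The 4 that rose include Tfec, whose TPM values did not overlap between the groups.

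Other factors of the list that act on Sqstm1 are named here after their values were seen. Whether they did so in these samples was not tested. Nfe2l2, which encodes NRF2, was at 141 ± 9.18 TPM in M1 samples and 106 ± 1.37 TPM in M0 samples (SD, n = 3 each), with a log2 change of 0.41 (limma, SE 0.05, adjusted p = 2.0e-05). Atf4, the factor of the integrated stress response, was at 487 ± 5.09 TPM in M1 samples and 359 ± 11.4 TPM in M0 samples (SD, n = 3 each), with a log2 change of 0.44 (limma, SE 0.04, adjusted p = 2.1e-06). Both rose. Tfe3, a close relative of Tfeb, fell, with 13.4 ± 1.01 TPM in M1 samples and 21.1 ± 0.545 TPM in M0 samples (SD, n = 3 each) and a log2 change of -0.63 (limma, SE 0.06, adjusted p = 3.2e-06).

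The promoter windows of Sqstm1 and Nbr1, the receptors that moved furthest in opposite directions, and of 3 genes that hold a CACGTG element are shown with matches in capitals. They run from 250 bases before to 50 after the RefSeq start (GRCm38.p6), read 5′ to 3′ on the gene's strand. A window was found for 32 of the 38 genes. The letters searched on both strands were CACGTG (TFEB and MITF type), TGACNNNGC (NRF2 type), GAAANNGAAA (interferon type) and GGGNNTTTCC (NF-κB type), all chosen after values were seen. CACGTG reads the same on both strands.
Sqstm1 (chr11:50210771-50211070, minus strand): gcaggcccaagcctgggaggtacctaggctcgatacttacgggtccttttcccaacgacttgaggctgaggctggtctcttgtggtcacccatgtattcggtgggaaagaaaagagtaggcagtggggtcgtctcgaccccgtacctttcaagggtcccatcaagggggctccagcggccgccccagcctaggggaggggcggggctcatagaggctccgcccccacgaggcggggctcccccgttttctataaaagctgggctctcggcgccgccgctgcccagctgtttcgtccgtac
Nbr1 (chr11:101552404-101552703, plus strand): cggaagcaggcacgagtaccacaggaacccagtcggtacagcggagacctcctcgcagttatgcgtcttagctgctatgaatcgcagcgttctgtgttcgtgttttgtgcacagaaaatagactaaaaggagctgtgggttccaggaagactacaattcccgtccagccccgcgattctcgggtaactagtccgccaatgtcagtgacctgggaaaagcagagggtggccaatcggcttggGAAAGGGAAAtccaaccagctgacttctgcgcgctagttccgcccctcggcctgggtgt
Atg5 (chr10:44268089-44268388, plus strand): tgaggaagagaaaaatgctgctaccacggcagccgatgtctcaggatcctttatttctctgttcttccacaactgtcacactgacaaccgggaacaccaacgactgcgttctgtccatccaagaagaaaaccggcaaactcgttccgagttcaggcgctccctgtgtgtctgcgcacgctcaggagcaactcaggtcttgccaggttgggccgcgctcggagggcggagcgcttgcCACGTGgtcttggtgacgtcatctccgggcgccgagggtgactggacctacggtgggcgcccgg
Atg3 (chr16:45158579-45158878, plus strand): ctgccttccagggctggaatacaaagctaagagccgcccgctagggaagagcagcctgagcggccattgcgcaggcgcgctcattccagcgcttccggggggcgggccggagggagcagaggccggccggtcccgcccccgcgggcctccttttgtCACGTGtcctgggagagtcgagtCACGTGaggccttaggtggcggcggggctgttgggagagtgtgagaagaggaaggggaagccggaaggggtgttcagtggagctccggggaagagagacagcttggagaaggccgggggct
Atg14 (chr14:47568385-47568684, minus strand): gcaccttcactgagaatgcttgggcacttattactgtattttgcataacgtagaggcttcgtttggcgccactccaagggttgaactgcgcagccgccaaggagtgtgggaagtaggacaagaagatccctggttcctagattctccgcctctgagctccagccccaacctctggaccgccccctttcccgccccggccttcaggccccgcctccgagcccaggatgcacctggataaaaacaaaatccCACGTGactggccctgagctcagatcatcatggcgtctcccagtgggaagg
Sqstm1 held none of the 4 in this window. The 32 genes have 38 windows, since some have several starts. Nbr1 held the interferon-type letters starting 9 bases before the start, which makes 1 of the 38 windows, against 3.44% of all 32851 windows. CACGTG was in 4 of the 38 windows (Atg14, Atg3, Atg5 and Atg7), against 7.15% of all windows. The NRF2-type letters were in 7 of the 38, from 5 genes (Atg13, Map1lc3b, Tax1bp1, Ulk2 and Vmp1), against 12.4% of all windows. The matches of Atg7, Tax1bp1 and Vmp1 lie at a start other than that of the transcript in the TPM values. The NF-κB type was in 1 of the 38 (Wipi2), against 1.63% of all windows. Of the 4 genes with CACGTG, Atg5 rose, Atg7 fell, and Atg3 and Atg14 were called on a single scale each. A match describes letters in the window and does not show binding.

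In the list of nutrient and energy sensors, which act on ULK1 through mTORC1 and AMPK, 21 of 23 genes were tested, 2 rose and 10 fell (against 18.7% and 35.4% of all tested genes), and the median log2 change was -0.49 in TPM and -0.15 after rescaling. Ddit4, a stress-induced inhibitor of mTORC1 also known as REDD1, was at 4.33, 3.49 and 4.13 TPM in M1 samples, against 34.6, 31.8 and 34.8 TPM in M0 samples. The level was 8.47-fold lower in M1 (6.58-fold after rescaling), with a log2 change of -2.80 (limma, SE 0.08, adjusted p = 3.4e-11) in TPM and -2.48 (limma adjusted p = 6.6e-10) after rescaling. Sesn1, a sestrin that restrains mTORC1, also fell, with 3.53 ± 0.366 TPM in M1 samples and 18.7 ± 0.753 TPM in M0 samples (SD, n = 3 each) and a log2 change of -2.12 (limma, SE 0.07, adjusted p = 3.4e-10). Its relative Sesn3 rose, with 3.14 ± 0.216 TPM in M1 samples and 1.48 ± 0.105 TPM in M0 samples (SD, n = 3 each) and a log2 change of 0.74 (limma, SE 0.08, adjusted p = 4.5e-06). The level of Sesn3 rests on few reads, 331 in the 3 M1 samples together and 140 in the 3 M0 samples. Rheb, the GTPase that activates mTORC1, was the other gene that rose, with 102 ± 2.66 TPM in M1 samples and 92.8 ± 4.88 TPM in M0 samples (SD, n = 3 each) and a log2 change of 0.14 (limma, SE 0.05, adjusted p = 0.023). The TPM call of Rheb was lost, and the count became 1, without M1 replicate 1 (limma adjusted p = 0.078), M1 replicate 2 (0.069), M0 replicate 2 (0.101) or M0 replicate 3 (0.068).

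Among other cargo receptors and mitophagy genes, 14 of 15 were tested, 2 rose (Tbk1 and Stbd1) and 7 fell, where 18.7% and 35.4% of all tested genes did, and the median log2 change was -0.49 in TPM and -0.14 after rescaling. Bnip3, a receptor of mitochondria induced by low oxygen, was at 21.1, 20.9 and 21.1 TPM in M1 samples, against 87.1, 82.6 and 83.1 TPM in M0 samples. The M1 samples lay close together and far below the M0 samples, with a log2 change of -1.95 (limma, SE 0.05, adjusted p = 1.1e-11) in TPM and -1.60 (limma adjusted p = 4.6e-10) after rescaling. Its paralogue Bnip3l, also known as NIX, fell too, with 14.8 ± 0.890 TPM in M1 samples and 33.3 ± 1.17 TPM in M0 samples (SD, n = 3 each) and a log2 change of -1.12 (limma, SE 0.06, adjusted p = 1.0e-08). Stbd1, a glycogen receptor, was at 12.1 ± 0.790 TPM in M1 samples and 9.79 ± 0.699 TPM in M0 samples (SD, n = 3 each), with a log2 change of 0.27 (limma, SE 0.07, adjusted p = 0.0043).

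Of 16 genes for fusion with the lysosome, 2 rose and 5 fell, near the 18.7% and 35.4% of all tested genes, and their median log2 change was -0.26 in TPM and 0.08 after rescaling. Tecpr1, a tether between autophagosome and lysosome, was at 5.87, 6.13 and 7.11 TPM in M1 samples, against 21.0, 23.2 and 22.1 TPM in M0 samples, 3.47-fold lower in M1 (2.70-fold after rescaling). Its log2 change was -1.65 (limma, SE 0.07, adjusted p = 2.8e-09). Vps18, a core subunit of the HOPS tethering complex, fell as well, with 9.19 ± 0.828 TPM in M1 samples and 18.3 ± 1.37 TPM in M0 samples (SD, n = 3 each) and a log2 change of -0.92 (limma, SE 0.08, adjusted p = 5.7e-07). Snap29, a SNARE of autophagosome fusion, rose, with 18.3 ± 1.13 TPM in M1 samples and 13.7 ± 0.539 TPM in M0 samples (SD, n = 3 each) and a log2 change of 0.39 (limma, SE 0.06, adjusted p = 0.00015). Fyco1, an adaptor that links autophagosomes to kinesin, rose, with 4.19 ± 0.361 TPM in M1 samples and 2.57 ± 0.152 TPM in M0 samples (SD, n = 3 each) and a log2 change of 0.54 (limma, SE 0.08, adjusted p = 7.0e-05).

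In the list of 11 further PI3K, Beclin and membrane partners, 1 rose and 6 fell (against 18.7% and 35.4% of all tested genes), with a median log2 change of -0.74 in TPM and -0.43 after rescaling. Atg9b, the second ATG9 gene, was at 1.69, 1.63 and 1.53 TPM in M1 samples, against 7.41, 7.01 and 6.93 TPM in M0 samples. It was 4.40-fold lower in M1 (3.42-fold after rescaling), with a log2 change of -1.63 (limma, SE 0.07, adjusted p = 2.2e-09). Rubcnl, also known as Pacer, a partner of UVRAG, fell, with 2.79 ± 0.110 TPM in M1 samples and 6.87 ± 0.0557 TPM in M0 samples (SD, n = 3 each) and a log2 change of -1.05 (limma, SE 0.07, adjusted p = 5.8e-08). Its relative Rubcn, the Rubicon protein that restrains the UVRAG complex and serves LC3-associated phagocytosis, fell as well, with 3.24 ± 0.163 TPM in M1 samples and 6.30 ± 0.715 TPM in M0 samples (SD, n = 3 each) and a log2 change of -0.78 (limma, SE 0.08, adjusted p = 5.2e-06). It is named after its values were seen. Sh3glb1, a membrane-bending partner of UVRAG, rose, with 78.6 ± 3.30 TPM in M1 samples and 60.6 ± 0.812 TPM in M0 samples (SD, n = 3 each) and a log2 change of 0.37 (limma, SE 0.05, adjusted p = 2.0e-05).

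**Figure D5:**
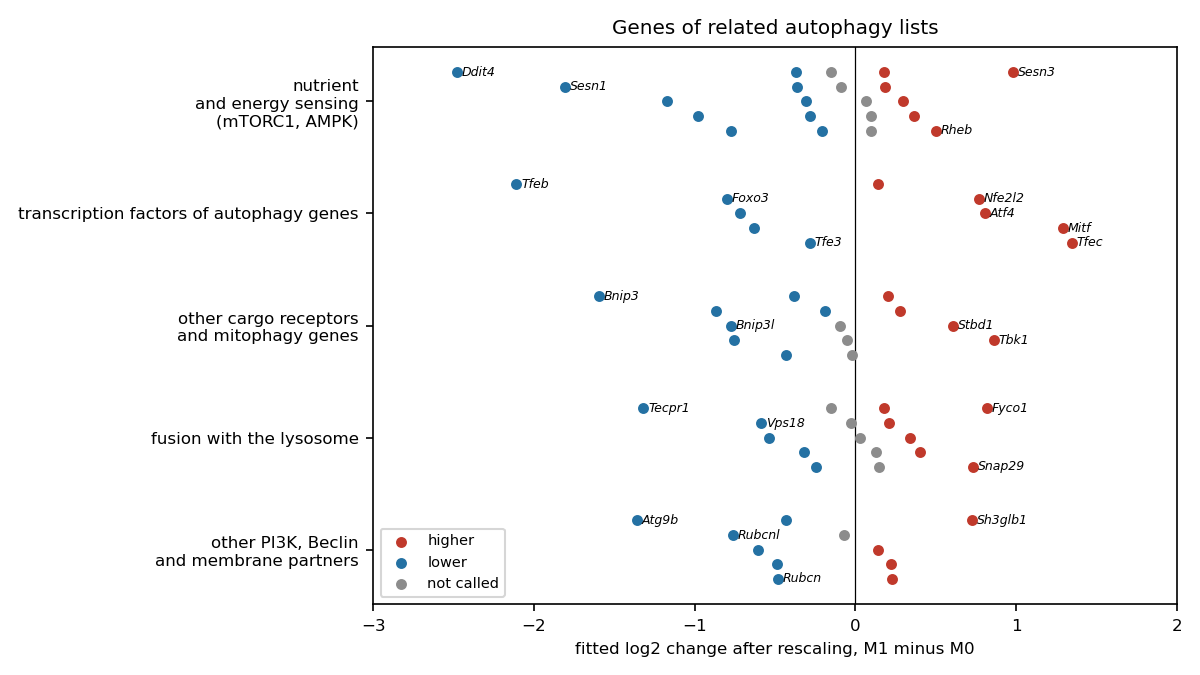
Fitted log2 change after rescaling (M1 minus M0, x axis) of the tested genes in the 5 further lists, with 1 point per gene, red where called higher, blue where called lower and grey where not called, and with the genes given in the text labelled. Ddit4 at -2.48 and Tfeb at -2.11 lie furthest left, and Tfec at 1.35 and Mitf at 1.29 furthest right. The log2(TPM + 1) scale understates the change of Tfec, which is low in M0 samples.

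The authors' deposited comparison, in which a positive value means higher in M1, gives another reading of the same samples. At an adjusted p below 0.05 it calls 14 of the 38 genes higher, where 35.6% of the genes it shares with the test above are called higher, and 14 lower, where 32.2% are. Its median over the 38 is 0.04 on the log2 scale. Of the 38 genes, 7 are listed there under another transcript than in the TPM values (Ulk1, Ambra1, Atg9a, Atg4c, Atg7, Atg16l1 and Nbr1).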

How the data were processed

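The authors deposited 2 tables. The first, per the file headers, holds TPM by sample, with 1 RefSeq transcript, its mm10 coordinates and its length per gene, for 25124 genes. Its columns sum to 551257 to 572349. The second, for 24421 genes, holds deposited log2 values of the 6 samples, whose transform the headers do not state. It also holds the log2 fold change of the authors with a deposited p-value, raw and adjusted. The submitters' processing notes list mm10, DESeq2, HOMER 4.11.1, STAR 2.7.5a and bcl2fastq without saying what each was used for. No source used here says whether counting used strand, so members that overlap an opposite-strand gene (Becn1, Atg4d, Map1lc3b and Gabarapl1) are uncertain. Atg5 and Atg16l1 overlap same-strand genes, which strand could not separate: Mir1929 (0 TPM) and Scarna6 (0.746 TPM).

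From the TPM, limma 3.58.1 in R 4.3.3, with a mean-variance trend and robust moderation, was fitted to log2(TPM + 1) over genes that reached 1 TPM in 3 or more samples, with group as the only term, 4 residual degrees of freedom and Benjamini-Hochberg adjustment over 11297 genes at 0.05. The fit was tested on simulated data in which a small part of the genes changed, in both directions. That simulation did not include the shift of the median gene seen here, so it cannot decide between the scales. Log2 changes are on the log2(TPM + 1) scale, which understates changes of low genes, and folds are ratios of mean TPM. The same fit was made after division by median-of-ratios factors. Read numbers were inferred: TPM times length was divided by a step, fitted for each library, that made the values whole numbers. The reads in genes so found were 83.5% to 86.7% of the header totals. Read numbers cover counting error only. Replicates correlated at 0.9946 to 0.9964. Their read numbers were compared by chi-square per degree of freedom, a measure of difference relative to sampling noise. It was 1.56 between M1 replicates 1 and 2, 7.90 and 6.55 between these and M1 replicate 3, and 2.18 to 5.73 among M0 samples. All pairs were above sampling noise, which does not show that they are separate cultures. Each sample was counted once.

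The 38 genes, the 5 further lists and the tests were chosen with earlier results of these data known. Full statistics are given for up to 2 members called higher and 2 called lower with the smallest p in each role, and values per sample for called members whose groups did not overlap on both scales. In each further list up to 2 higher and 2 lower genes were named by the same rule, and Tfe3, Nfe2l2, Atf4 and Rubcn after their values were seen. Alternatives were another pseudocount and filter, no trend or robust fit, rescaling, a replicate block, the authors' log2 values and each sample left out.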

Additional observations from a re-analysis of the deposited data

How the results depend on the processing

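Scale decided most of what changed. In TPM 7 autophagy genes were called higher and 25 lower, among 2111 and 6944 tested genes. The members called higher numbered 16 after rescaling, with and without the replicate block, and with the authors' log2 values. The members called lower numbered 15 after rescaling, 16 with the block added and 17 with the authors' log2 values. The tested genes called higher were 4305 after rescaling, 4346 with the block added and 4152 with the authors' log2 values, and those called lower were 4002, 4020 and 3865. The median log2 change of the members was 0.038, 0.038 and 0.036 in these 3 and -0.21 with a filter at 5 TPM, which Ulk1, Wipi1 and Atg4c did not pass.

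The log2 change of 10 members reversed to higher in M1, with the first value after rescaling (with and without the block) and the second from the authors' log2 values: Rb1cc1 0.21 and 0.22, Becn1 0.23 and 0.23, Atg2a 0.17 and 0.18, Atg4b 0.16 and 0.16, Atg4d 0.20 and 0.20, Atg10 0.19 and 0.19, Atg12 0.25 and 0.25, Atg16l1 0.14 and 0.13, Gabarap 0.16 and 0.15, and Gabarapl2 0.093 and 0.085. Atg10 ranged from -0.137 to 0.020 with single samples left out, reversing to 0.020 without M1 replicate 1. In shares of reads in place of TPM, the difference was -3.52 points for Wipi1, 14.4 for Atg2a, -2.02 for Map1lc3b, 20.6 for Sqstm1 and 0.045 for Atg4d, the last reversed, as it was without M0 replicate 3 (0.055).

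Leaving out each sample in turn gave 5 to 7 members higher and 23 to 25 lower, 1990 to 2076 tested genes higher and 6606 to 6997 lower, and a median of -0.34 to -0.27. The share differences ranged from -5.51 to -3.67 points for Ulk1, -7.23 to -5.25 for Wipi1, 12.6 to 13.4 for Atg2a, 7.87 to 9.83 for Atg16l1, -1.28 to 0.055 for Atg4d, -1.26 to -0.977 for Map1lc3b and 17.9 to 18.3 for Sqstm1. The 7 higher on both scales became 5 to 7, and the 15 lower became 14 to 15. The 15 became 14, without Map1lc3b, with no filter and with no trend or robust fit, and 12 with the 5 TPM filter. That filter also left 1 nutrient sensor and 1 fusion gene called higher in TPM, as Sesn3 and Fyco1 did not pass it.

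Deviations of same-numbered samples from their group means had correlations of 0.0714, -0.0757 and 0.0368. Those of differently numbered samples ranged from -0.179 to 0.152. With 3 samples per group this check cannot decide whether the numbers pair samples. With the replicate block 7 members were higher and 25 lower, the same genes, among 2143 and 7016 tested genes, and Atg9a joined the 15 lower on both scales. Becn1 lost its call with a pseudocount of 0.1 (limma adjusted p = 0.0501), with no filter (0.0857) and with no trend or robust fit (0.0820). The cause was not tested. Depth limits Wipi1, Atg10, Tfec and Sesn3, which rest on few reads.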
